A study of Mus musculus with 12 samples.

Results

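The 9 genes described here encode enzymes and a cofactor with which the pancreas digests fat and starch. They are pancreatic lipase (Pnlip), its relatives Pnliprp1 and Pnliprp2, the bile-salt-dependent carboxyl ester lipase Cel, the phospholipase Pla2g1b, the colipase Clps, and the amylases Amy2a5, Amy2b and Amy1. They were chosen by symbol and found by Ensembl identifier, and all 9 of them, of 49585 genes listed, passed the filter on low counts. RNA was sequenced from whole pancreas of single mice, 3 animals in each of 4 groups. Cerulein, a cholecystokinin analogue that overstimulates acinar cells, was injected at 50 ug/kg. C57Bl6 wild-type mice (WT) got cerulein (libraries O1, O3 and N3) or saline (W1, K5 and R3), and congenic Atf3-/- mice got cerulein (C2, C3 and L4) or saline (S1, K4 and Q1). All mice were 2 to 4 months old and received 4 injections over 4 h, and their pancreas was taken at 4 h. The Atf3-/- groups are called labelled KO, since Atf3 counts were not lower in them than in WT of the same treatment, library C3 apart. The labels do not say which part of Atf3 was deleted.

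Acinar cells make these proteins in bulk, store them in granules and release them into the gut when cholecystokinin acts on them. Pnlip cuts triglycerides at the surface of fat droplets, but bile salts push it off that surface, and colipase holds it there. Cel needs bile salts and also cuts cholesterol esters, Pla2g1b cuts phospholipids after trypsin removes its propeptide, and amylase cuts starch. In the mouse the Amy2 genes are the pancreatic amylases, and Amy1 is best known from the salivary gland and liver.

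A few libraries stood apart or went against their labels. Atf3, the gene named in the label, averaged 14.7 ± 7.88 CPM (counts per 1e6, on library sizes scaled by TMM) in labelled KO saline and 3.21 ± 2.07 CPM in WT saline (SD, n = 3 each). With cerulein Atf3 stood at 1375 (C2), 20.7 (C3) and 1636 CPM (L4) in the labelled KO, against 394 to 775 CPM in WT. Library C3, labelled KO and cerulein, stood with the saline libraries on the first principal component, at -55.9, where saline libraries had scores of -58.8 to -46.4 and the other cerulein libraries between 61.9 and 86.05. Results on the labelled KO in cerulein are therefore given with and without C3. N3 and K4 were highest in the 8 summed fat-cell markers (512 and 533 CPM, against at most 144 CPM in the other libraries) and in the 8 summed lymphocyte markers (711 and 296 CPM), with W1 next in the lymphocyte markers at 259 CPM. The 6 acinar markers together reached at least 160190 CPM in every library. Total counts per library were between 18292997 and 32158629.

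The amylase values need their sequences first, since the amylase genes lie side by side on chromosome 3 as near copies. In GENCODE M21, on the GRCm38 build (mm10), Amy2b lies at chr3:113147656-113156727, Amy2a5 at chr3:113247178-113258837 and Amy1 at chr3:113555710-113606699, all on the minus strand. The coding sequences of Amy2a2, Amy2a3 and Amy2a4 were identical to that of Amy2a5 over all 1527 bases, Amy2b differed from it at 29 of 1526 aligned bases, and Amy1 differed at 154 of 1527. GENCODE lists Amy2b as an unprocessed pseudogene and RefSeq as protein coding. The first window below, bases 418 to 477 of the Amy2a5 coding sequence counted from its start codon, is one where Amy1 can be told apart, and its capitals mark the 16 bases at which Amy1 differs.
Amy1: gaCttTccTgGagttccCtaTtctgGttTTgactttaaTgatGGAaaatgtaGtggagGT
Amy2a5: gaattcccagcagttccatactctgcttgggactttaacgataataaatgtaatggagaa
Amy2b: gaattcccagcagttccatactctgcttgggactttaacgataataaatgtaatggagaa
The second window, bases 187 to 246, is one where Amy2b can be told apart from Amy2a5, at the 6 bases in capitals.
Amy2b: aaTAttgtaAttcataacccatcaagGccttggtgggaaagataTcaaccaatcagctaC
Amy2a5: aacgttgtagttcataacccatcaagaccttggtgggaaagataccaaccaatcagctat
Of all 50-base words in its transcript, Amy2a5 shared 57.2% with another gene, Amy2b 40.2% and Amy1 2.69%. The 3 identical copies shared 100%. Pnlip, Pnliprp1, Pnliprp2, Cel, Pla2g1b and Clps shared 0%, so a 50-base read from the transcript searched matches no annotated transcript of another gene without mismatches. Their exons outside that transcript and the genome outside annotated transcripts were not searched. How reads that match several genes were counted is not given in the sources used here, so the split between Amy2a5, Amy2b and the Amy2a copies is uncertain, while Amy1 and the 6 other genes are less exposed to it.

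The 3 lipase genes form a cluster on the plus strand of chromosome 19, with Pnlip at chr19:58652498-58681788, Pnliprp1 at chr19:58728887-58744169 and Pnliprp2 at chr19:58759719-58777534. Their coding sequences were 69.1% (Pnliprp1) and 70.2% (Pnliprp2) identical to that of Pnlip. Cel lies at chr2:28555795-28563403 and Clps at chr17:28558149-28560766, both on the minus strand, and Pla2g1b at chr5:115466262-115474722 on the plus strand. Annotated genes overlap Cel (Gm13381, antisense), Clps (Mir6969, same strand) and Amy1 (Rnpc3, same strand). They were counted at most at 0.293, 1.62 and 10.6 CPM in any library.

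The start regions were searched for letters known from pancreatic genes. CACCTG (an E-box) and TTTCCC are the boxes bound by the acinar factor PTF1, and TATAAA is the TATA box. RefSeq windows from 250 bases before to 50 after the start (GRCm38.p6) were found for 8 of the 9 genes, and both strands were read. Cel held 4 CACCTG and 1 TTTCCC. Amy2b held 1 CACCTG, 1 TATAAA and, 36 bases after the start, 1 TTTCCC, which Amy2a5 also held at that place. TATAAA was in the windows of Amy2a5 and Pnlip 30 bases before the start. The 250 bases before the start of these 4 genes are shown for their differing boxes, with the matches in capitals on either strand.
Cel (chr2:28563404-28563653, minus strand): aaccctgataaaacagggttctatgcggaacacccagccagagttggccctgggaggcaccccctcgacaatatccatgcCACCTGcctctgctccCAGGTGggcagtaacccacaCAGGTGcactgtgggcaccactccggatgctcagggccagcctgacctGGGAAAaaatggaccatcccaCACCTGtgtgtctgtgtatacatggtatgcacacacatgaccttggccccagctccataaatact
Amy2b (chr3:113156728-113156977, minus strand): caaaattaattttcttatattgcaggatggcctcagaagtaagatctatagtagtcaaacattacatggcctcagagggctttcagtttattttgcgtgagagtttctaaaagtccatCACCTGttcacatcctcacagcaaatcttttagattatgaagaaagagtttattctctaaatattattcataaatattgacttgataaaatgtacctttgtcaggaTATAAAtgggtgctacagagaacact
Amy2a5 (chr3:113258700-113258949, minus strand): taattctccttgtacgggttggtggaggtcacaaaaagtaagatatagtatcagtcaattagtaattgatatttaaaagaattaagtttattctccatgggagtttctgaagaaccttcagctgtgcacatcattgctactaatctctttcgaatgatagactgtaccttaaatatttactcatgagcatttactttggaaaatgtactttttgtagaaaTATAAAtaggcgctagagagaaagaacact
Pnlip (chr19:58670115-58670364, plus strand): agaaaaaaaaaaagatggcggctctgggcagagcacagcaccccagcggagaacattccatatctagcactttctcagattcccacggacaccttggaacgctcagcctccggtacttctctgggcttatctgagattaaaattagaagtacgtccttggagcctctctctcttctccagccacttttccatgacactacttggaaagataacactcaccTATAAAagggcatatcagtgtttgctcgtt
Pnliprp2 held 1 CACCTG 228 bases before its start, and 1 of the 2 windows of Amy1 a TATAAA 63 bases before. The windows of Pnliprp1 and Pla2g1b held none of these letters. Over 32851 RefSeq windows of the same length, 20.2% held CACCTG, 25.2% TTTCCC, 13.6% TATAAA and 4.86% both CACCTG and TTTCCC. A match is a description of the letters and not evidence of binding.

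Fat-digesting enzymes were among the most abundant messages of the tissue. Ranked by the mean CPM over the 12 libraries among all genes, Pnlip stood at 1, Cel at 8, Pnliprp1 at 11, Clps at 14, Pnliprp2 at 26, Amy2b at 29, Amy2a5 at 31, Pla2g1b at 44 and Amy1 at 93. The ranks of the amylases hold for single copies, since their reads are divided among several loci. Together the 9 genes took 14.9% ± 0.454 of all counts in WT cerulein libraries and 18.2% ± 0.225 in WT saline libraries (SD, n = 3 each). In the labelled KO they took 15.5% ± 1.63 in cerulein and 18.6% ± 1.61 in saline (SD, n = 3 each), and 14.6% ± 0.607 in cerulein without C3 (SD, n = 2). The 24 other zymogens and secretory proteins took 42.5% ± 1.32 in WT cerulein and 50.9% ± 1.37 in WT saline, so both sets held a smaller share with cerulein.

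Per kb of exon, the order of levels within a group differed between cerulein and saline at its top. Pnlip stood first in WT cerulein with 32677 ± 2436 CPM per kb, and Clps after it with 20912 ± 789 (SD, n = 3 each), and their ranges did not overlap. Both were alike in WT saline, with 34509 ± 1050 for Pnlip and 35820 ± 2918 for Clps, whose ranges overlapped. Cel (15389 in WT cerulein and 19387 in WT saline) and Pnliprp1 (10232 and 13375) followed in both, each apart from its neighbours. Pnliprp2 (2623 and 2794), Amy2b (1327 and 2328) and Pla2g1b (1401 and 1766) came next. Pla2g1b and Amy2b overlapped in WT cerulein, as did Pnliprp2 and Amy2b in WT saline. Amy2a5 (381 and 978) and Amy1 (116 and 252) were lowest. These levels divide by the length of all annotated exons. With the longest transcript as the length Pnlip led in WT saline too (50940 against 35820 for Clps), so the order of those genes rests on the length taken. By that length the ranges of Cel and Pnliprp1 overlapped in WT cerulein and in WT saline, so their separation rests on it as well.

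**Figure D1:**
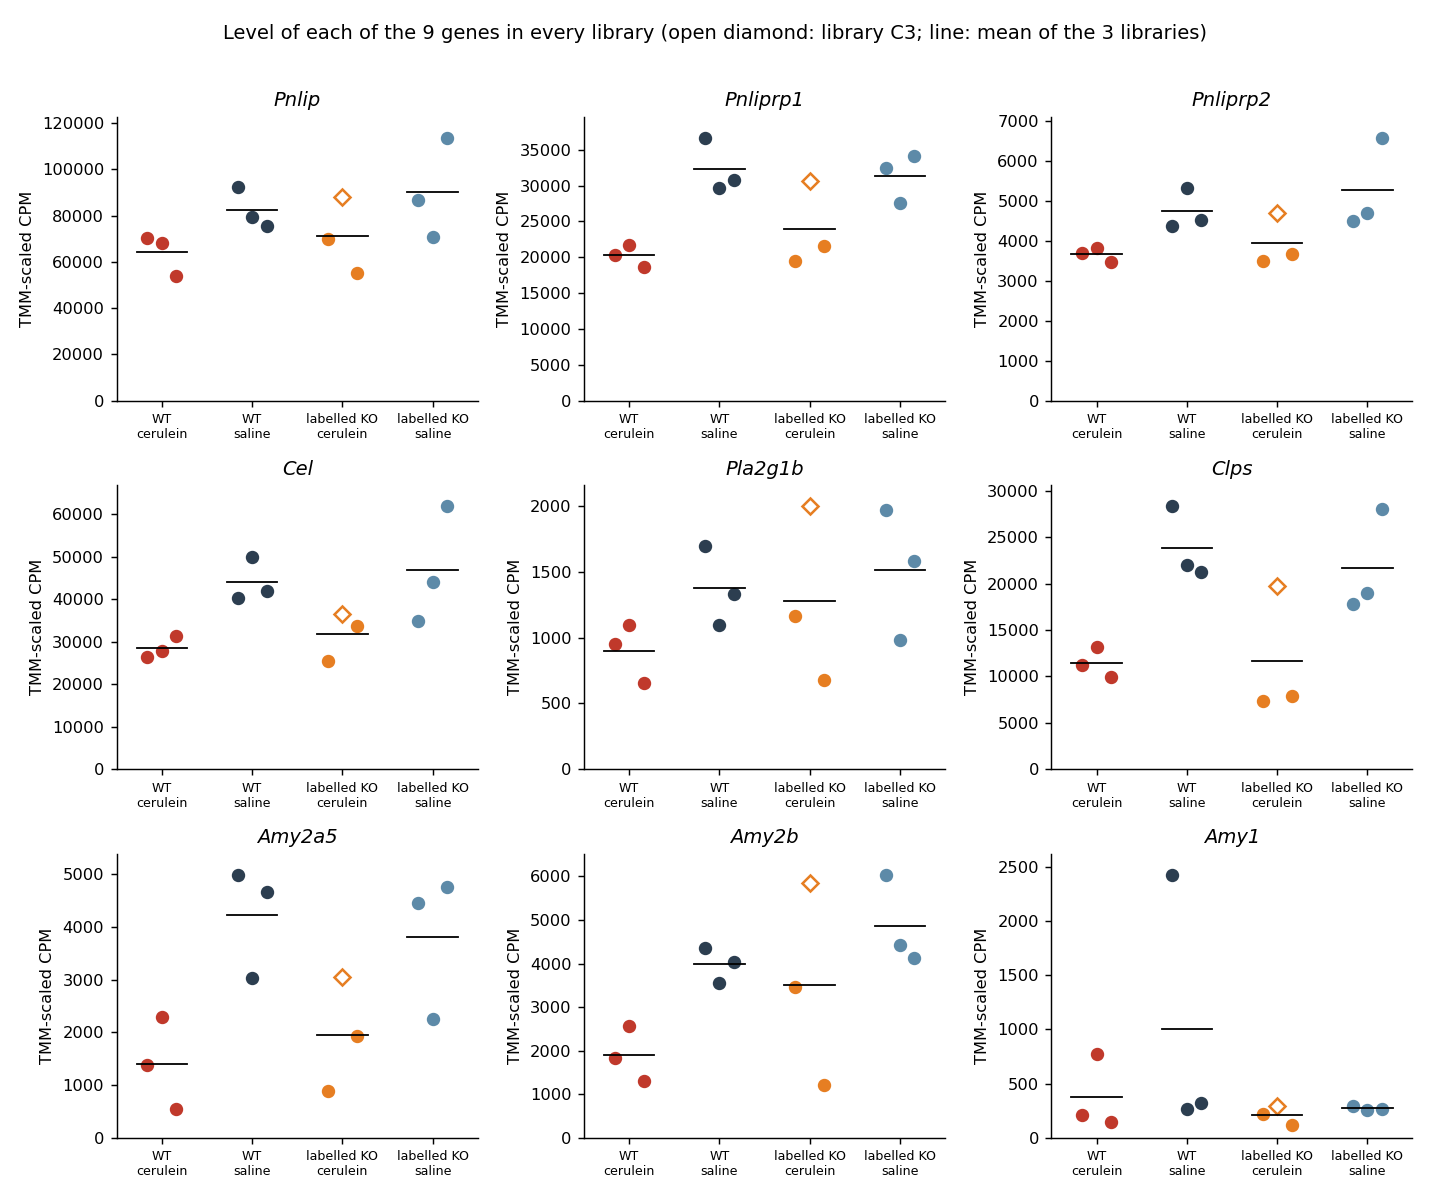
Level of each gene, in TMM-scaled CPM on a linear axis from 0, in each library of the 4 groups, with points for libraries, a line for the mean of the 3 libraries and an open diamond for C3. For Clps the WT cerulein points reach at most 13144 CPM and lie below all WT saline points, which start at 21238 CPM, while C3 lies at 19774 CPM, within the labelled KO saline range.

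Cerulein against saline in WT asked how these genes differ 4 h into pancreatitis-inducing treatment of control mice. Clps, Pnliprp1 and Amy2a5 fell, and the other 6 genes had estimates below 0 that did not pass the test. Thus 3 of 9 genes were called lower and 0 higher at an adjusted p under 0.05 in edgeR's quasi-likelihood test. Of all 14329 genes tested 30.7% were called, 12.8% lower and 17.9% higher. The median of the 9 log2 fold changes was -0.68, against 0.05 over all genes tested. In 7 of the 9 genes all cerulein libraries lay below all saline libraries in TMM-scaled CPM, and 24.9% of all genes did so. Unscaled CPM separated 4 of the 9 in that way (Pnliprp1, Clps, Amy2a5 and Amy2b). The share of all genes separated in unscaled CPM was not counted, so that count cannot be set against it.

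Clps, the colipase, stood at 11208 (O1), 13144 (O3) and 9925 CPM (N3) with cerulein, against 28327 (W1), 22042 (K5) and 21238 CPM (R3) with saline. The lowest saline library was thus well above the highest cerulein library. The log2 fold change was -1.06 ± 0.37 (SE, n = 3 per group; edgeR's quasi-likelihood test, adjusted p = 0.0471), which leaves 47.9% of the saline level. Mir6969, the gene that overlaps it, was counted at no more than 1.62 CPM in any library.

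Pnliprp1, a lipase relative with little known lipase activity of its own, stood at 20325 (O1), 21773 (O3) and 18641 CPM (N3) with cerulein, against 36636 (W1), 29631 (K5) and 30755 CPM (R3) with saline. The groups did not overlap. Its log2 fold change was -0.68 ± 0.21 (SE, n = 3 per group; edgeR, adjusted p = 0.0344). Its neighbours in the cluster had smaller estimates. Pnlip had 70255 (O1), 68276 (O3) and 53705 CPM (N3) with cerulein, against 92534 (W1), 79345 (K5) and 75294 CPM (R3) with saline, a log2 fold change of -0.36 ± 0.24 (edgeR, adjusted p = 0.277). Its groups lay apart by TMM-scaled CPM but overlapped in unscaled CPM, where Pnlip averaged 71727 ± 5346 in cerulein and 75748 ± 2304 in saline. Pnliprp2, which cuts galactolipids and milk fat, had 3697 (O1), 3830 (O3) and 3462 CPM (N3) with cerulein, against 4372 (W1), 5318 (K5) and 4527 CPM (R3) with saline, and a log2 fold change of -0.37 ± 0.21 (edgeR, adjusted p = 0.201).

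Cel had 26438 (O1), 27829 (O3) and 31250 CPM (N3) with cerulein, against 40241 (W1), 49919 (K5) and 41847 CPM (R3) with saline. All saline libraries were higher, yet the log2 fold change of -0.63 ± 0.24 missed the threshold (edgeR, adjusted p = 0.0682). Pla2g1b, the phospholipase, had 949 (O1), 1099 (O3) and 655 CPM (N3) with cerulein, against 1694 (W1), 1098 (K5) and 1332 CPM (R3) with saline. Its groups overlapped, at O3 and K5, and its log2 fold change was -0.61 ± 0.39 (edgeR, adjusted p = 0.263).

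Among the amylases, Amy2a5 had 1376 (O1), 2294 (O3) and 548 CPM (N3) with cerulein, against 4988 (W1), 3028 (K5) and 4666 CPM (R3) with saline. The groups did not overlap, but the cerulein libraries differed 3.35-fold among themselves in unscaled CPM. The log2 fold change was -1.59 ± 0.55 (SE, n = 3 per group; edgeR, adjusted p = 0.0496). Amy2b had 1824 (O1), 2561 (O3) and 1310 CPM (N3) with cerulein, against 4359 (W1), 3549 (K5) and 4047 CPM (R3) with saline, with a log2 fold change of -1.07 ± 0.46 (edgeR, adjusted p = 0.0994). The groups of Amy2b did not overlap either.

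The WT calls stood close to the threshold. Left-out libraries ended the call of Clps (without W1, K5, R3, O1, O3, N3, S1, K4 or Q1), of Pnliprp1 (without W1, K5, R3, O1, O3, N3 or S1) and of Amy2a5 (without W1, K5, R3, O1, N3, S1, Q1 or L4), with adjusted p of at most 0.138, 0.122 and 0.125 over all 23 alternatives. Over those alternatives their log2 fold changes stayed between -1.26 and -0.78 (Clps), between -0.87 and -0.39 (Pnliprp1) and between -2.13 and -1.20 (Amy2a5). In the fit without C3, which belongs to neither WT group but adds to the shared estimate of the spread, 5 of 9 genes were called lower by edgeR, where 37.9% of all genes were called and 16.6% lower. They were Clps (adjusted p = 0.00318), Pnliprp1 (0.00835), Amy2a5 (0.0346), Amy2b (0.0413) and Cel (0.0484). Without C3 and W1 together, 2 of the 9 were called by edgeR, Clps (adjusted p = 0.0152) and Pnliprp1 (0.0378), and Amy2a5, Amy2b and Cel were not (0.0914, 0.104 and 0.0722). In that fit 32.1% of all genes were called and 13.3% lower.

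Library scaling moves these estimates together. With library totals in place of TMM, the median log2 fold change of all genes in WT was 0.34, and calls were 3195 higher and 881 lower, against 2568 higher and 1831 lower with TMM. Clps (-0.78), Pnliprp1 (-0.39) and Amy2a5 (-1.36) were still called lower there by edgeR (adjusted p = 0.0475, 0.0428 and 0.0487), and Pnlip was at -0.08 and Pnliprp2 at -0.09 (adjusted p = 0.648 and 0.705). Fewer acinar cells and less RNA per acinar cell cannot be told apart in whole pancreas. The 6 acinar markers summed to 163420 to 174640 CPM in WT cerulein and 195380 to 202960 CPM in WT saline. The 8 ductal markers summed to 6496 to 8064 CPM in WT cerulein and 254 to 316 CPM in WT saline. None of either list was at 0. Abundant enzymes weigh most in the acinar sum, such as Ctrb1, with means of 69948 CPM in WT cerulein and 75866 CPM in WT saline. Its members Rbpjl and Bhlha15 had log2 fold changes of -1.59 and -1.65 in WT. The ductal list includes the keratins Krt8 and Krt18, and which cells their counts came from was not tested. In either genotype these sums therefore do not measure cell content. The part of the markers in the results was not tested.

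**Figure D2:**
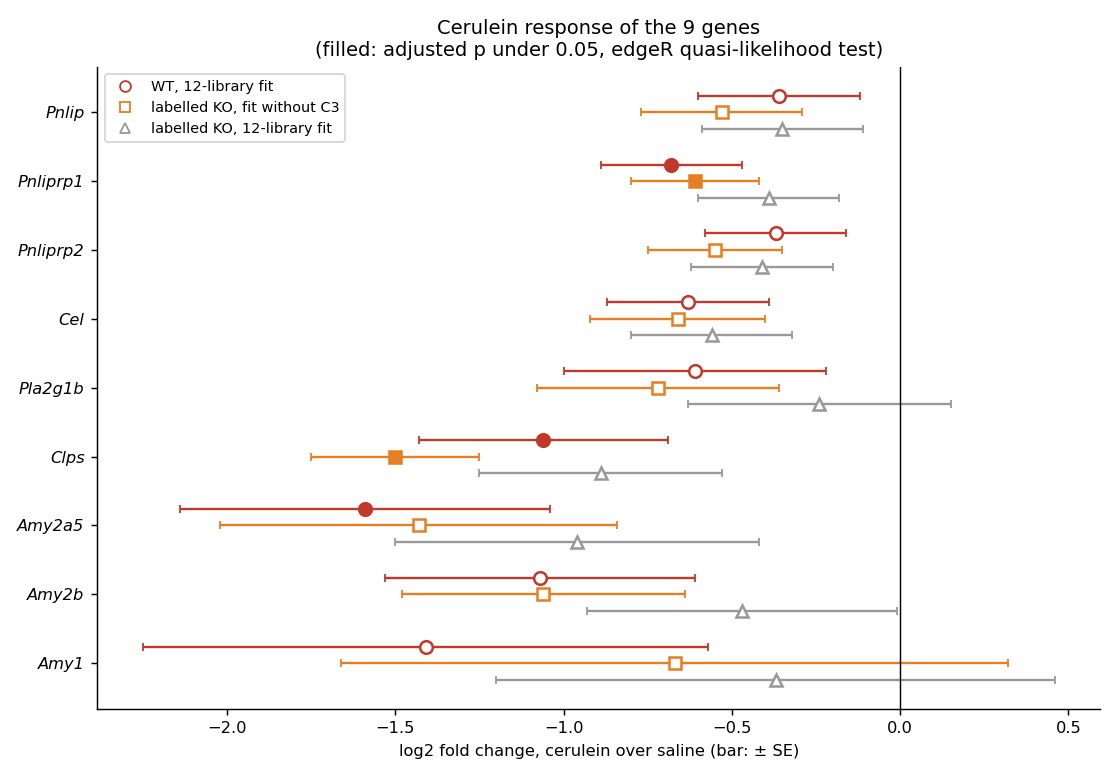
Log2 fold changes of cerulein over saline (horizontal axis; bars, SE) for the 9 genes in WT, in the labelled KO fitted without C3 and in the labelled KO with all 12 libraries, filled where the adjusted p of edgeR's test was under 0.05. Filled marks stand at Clps and Pnliprp1 in WT and in the labelled KO without C3, and at Amy2a5 in WT, and every mark lies below 0.

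In the labelled KO, the same question gave 0 of 9 genes called with all 12 libraries, where 0% of all genes tested were called by edgeR and 3256 genes had an unadjusted p under 0.05. DESeq2 called 0 of the 9, beside 1359 genes, 0.951% of those it tested being called lower. The 9 estimates lay between -0.96 (Amy2a5) and -0.24 (Pla2g1b), with a median of -0.41. None of the 9 genes separated the groups, while 6.35% of all genes did with cerulein lower and 9.41% with cerulein higher. C3 was the highest of the 3 cerulein libraries for 9 of the 9 genes in TMM-scaled CPM and for 7 of them in unscaled CPM. The share of all genes with C3 highest was not counted, so this is not a trait particular to the 9.

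Without C3, Clps and Pnliprp1 fell in the labelled KO, so 2 of 9 genes were called lower and 0 higher by edgeR. Of all 14733 genes tested in that fit 29.2% were called, 10.5% lower and 18.7% higher. The 9 estimates had a median of -0.67, against 0.00 over all genes tested. In 8 of the 9 genes both cerulein libraries lay below all saline libraries in TMM-scaled CPM, and 23.7% of all genes did so. Pla2g1b was the exception. Unscaled CPM separated 4 of the 9 in that way (Pnlip, Pnliprp1, Clps and Amy2a5). Here too the share of all genes separated in unscaled CPM was not counted. DESeq2 called 6 of the 9 lower, and 12.6% of all genes it tested.

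Colipase gave the lowest estimate of the 9 genes in that fit. Clps stood at 7388 (C2), 19774 (C3) and 7926 CPM (L4) with cerulein, against 17837 (S1), 19047 (K4) and 28056 CPM (Q1) with saline. C3 lay inside the saline range, and both other cerulein libraries were far below it. Without C3 the log2 fold change was -1.50 ± 0.25 (SE, n = 2 and 3; edgeR, adjusted p = 0.00147), and with C3 it was -0.89 ± 0.36 (edgeR, adjusted p = 0.183). The call without C3 held in 19 of 19 alternatives, with log2 fold changes between -1.65 and -1.16 and adjusted p of at most 0.0203.

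Pnliprp1 stood at 19429 (C2), 30626 (C3) and 21590 CPM (L4) with cerulein, against 32382 (S1), 27578 (K4) and 34161 CPM (Q1) with saline. Here too C3 alone of the cerulein libraries reached the saline range. The log2 fold change was -0.61 ± 0.19 without C3 (SE, n = 2 and 3; edgeR, adjusted p = 0.0315) and -0.39 ± 0.21 with it (edgeR, adjusted p = 0.28). The call without C3 was lost when O1, S1, Q1, C2 or L4 was left out as well, with library totals, without the filter on low counts and with only the groups of the comparison, with adjusted p of at most 0.173 and estimates between -0.77 and -0.28 over the 19 alternatives.

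The remaining lipases had estimates below 0 without C3 that did not pass. Pnlip was at -0.53 ± 0.24 (edgeR, adjusted p = 0.127), Pnliprp2 at -0.55 ± 0.20 (0.0647), Cel at -0.66 ± 0.26 (0.0744) and Pla2g1b at -0.72 ± 0.36 (0.16). With C3 they were at -0.35 (edgeR, adjusted p = 0.384), -0.41 (0.26), -0.56 (0.2) and -0.24 (0.713), in the same order. The amylases had wide errors, with Amy2a5 at -1.43 ± 0.59 (edgeR, adjusted p = 0.0978), Amy2b at -1.06 ± 0.42 (0.084) and Amy1 at -0.67 ± 0.99 (0.645). With C3 these were at -0.96 (edgeR, adjusted p = 0.297), -0.47 (0.529) and -0.37 (0.798). Cel had 25574 (C2), 36515 (C3) and 33623 CPM (L4) with cerulein, against 34897 (S1), 44023 (K4) and 61862 CPM (Q1) with saline. L4 thus lay just below S1 in TMM-scaled CPM, while in unscaled CPM L4 (40156) lay above S1 (31123). Amy2a5 had 896 (C2), 3043 (C3) and 1933 CPM (L4) with cerulein, against 4450 (S1), 2248 (K4) and 4758 CPM (Q1) with saline, and C3 lay above K4. Amy2b stood at 3469 (C2), 5841 (C3) and 1204 CPM (L4) with cerulein, against 6036 (S1), 4430 (K4) and 4127 CPM (Q1) with saline. C2 and L4 differed widely there, and C3 was within the saline range. L4 was also highest in the 8 islet markers, which summed to 13711 CPM there and to at most 3977 CPM in the other libraries, and their part in the L4 values was not tested. In that genotype the ductal markers summed to 7144 to 7901 CPM in cerulein without C3, 378 CPM in C3 and 227 to 318 CPM in saline, and the acinar markers to 160190 to 173310 CPM in cerulein without C3 and 189430 to 205320 CPM in saline.

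Labelled KO against WT in saline gave 0 of 9 genes called, as 0% of all genes were called by edgeR (60 genes had an unadjusted p under 0.05, and DESeq2 called 0). Of the 9 estimates 8 lay between -0.15 and 0.29. Amy1 was at -1.89 ± 0.85 (edgeR, adjusted p = 1, unadjusted p = 0.0492), and this rests on the WT library W1, without which it was -0.10. Clps had a log2 fold change of -0.14 ± 0.36 and Pnlip one of 0.13 ± 0.24, each with an adjusted p of 1 by edgeR. None of the 9 genes separated the groups in TMM-scaled CPM, as 2.74% of all genes did with the labelled KO lower and 2.09% with it higher.

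In cerulein, the labelled KO and WT also gave 0 of 9 genes called, with and without C3, where 0% of all genes were called by edgeR. Unadjusted p under 0.05 was reached by 1146 genes with C3 and 747 without it, and DESeq2 called 11 and 14 genes, none of them among the 9 (0.028% and 0.0824% of the genes it tested were called lower). Clps without C3 was the exception among the 9 in that both labelled KO libraries (7388 and 7926 CPM) lay below all 3 WT libraries (9925 to 13144 CPM), as 6.53% of all genes did (9.51% had the labelled KO higher). Its log2 fold change was -0.58 ± 0.25 (SE, n = 2 and 3; edgeR, adjusted p = 0.974, unadjusted p = 0.039), and with C3 it was 0.03 ± 0.36 (edgeR, adjusted p = 0.978). Without C3 the estimates of Pnlip (-0.04 ± 0.24), Pnliprp1 (0.02 ± 0.18), Pnliprp2 (-0.03 ± 0.20) and Cel (0.06 ± 0.25) were close to 0.

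The difference between the cerulein response of the labelled KO and that of WT was called for 0 of 9 genes and 0% of all genes by edgeR (594 genes had an unadjusted p under 0.05, and DESeq2 called 1). The estimates lay between -0.04 (Pnliprp2) and 1.04 (Amy1), and that of Clps was 0.17 ± 0.51 (edgeR, adjusted p = 0.936). Over the alternatives, which include leaving out C3, the difference for Clps lay between -0.63 and 0.42. Its sign changed with C3. In the fit without C3 the estimate of Clps was lower in the labelled KO (-1.50) than in WT (-1.06). With all 12 libraries it was higher in the labelled KO (-0.89 against -1.06). Without C3 the estimate of Pnlip was also lower in the labelled KO (-0.53 against -0.36). Those of Pnliprp1 (-0.61 against -0.68) and Amy2a5 (-1.43 against -1.59) were higher there.

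Ratios between genes of one library do not depend on how libraries are scaled. Clps per kb was 57.3% (O1), 69.2% (O3) and 66.4% (N3) of Pnlip in WT cerulein, against 110% (W1), 99.8% (K5) and 101% (R3) in WT saline. The groups did not overlap, and their means of the log2 ratio were -0.64 ± 0.143 in cerulein and 0.05 ± 0.0753 in saline (SD, n = 3 each). With the longest transcript as the length, Clps was 38.8% to 46.9% of Pnlip in WT cerulein and 67.6% to 74.5% in WT saline. The level of such a ratio thus rests on the length taken, while its differences between libraries on the log2 scale do not. All other ratios to Pnlip given per kb use the length of all annotated exons. Labelled KO ratios of Clps were 38.1% (C2), 80.5% (C3) and 51.5% (L4) in cerulein, against 73.8% (S1), 96.7% (K4) and 88.8% (Q1) in saline. C3 again fell among the saline libraries, and the other cerulein libraries were below all of them. Labelled KO ratios all lay below the WT ratios in saline, with a difference of means of -0.27 on the log2 scale, and in cerulein without C3, with one of -0.53. With C3 the ratios overlapped in cerulein, with a difference of -0.25. Clps itself was not called by edgeR between the genotypes, at -0.14 in saline and -0.58 in cerulein without C3. The ratios of Pnliprp1, Pnliprp2, Cel and Pla2g1b to Pnlip overlapped between the genotypes in both. How often ratios of other gene pairs separate groups this small was not counted.

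Pnliprp1 was 28.6% (O1), 31.5% (O3) and 34.3% (N3) of Pnlip in WT cerulein, against 39.1% (W1), 36.9% (K5) and 40.3% (R3) in WT saline, again with no overlap. Labelled KO ratios of Pnliprp1 overlapped, at 27.5% (C2), 34.3% (C3) and 38.6% (L4) in cerulein, against 36.8% (S1), 38.5% (K4) and 29.7% (Q1) in saline. Pnliprp2 overlapped between the groups in both genotypes, with a mean of 8.06% in WT cerulein and 8.12% in WT saline, and one of 7.91% in labelled KO cerulein and 8.21% in labelled KO saline. Cel (47.5% in WT cerulein and 56.3% in WT saline) and Pla2g1b (4.29% and 5.11%) overlapped between the groups in both genotypes. No test was run on the ratios.

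**Figure D3:**
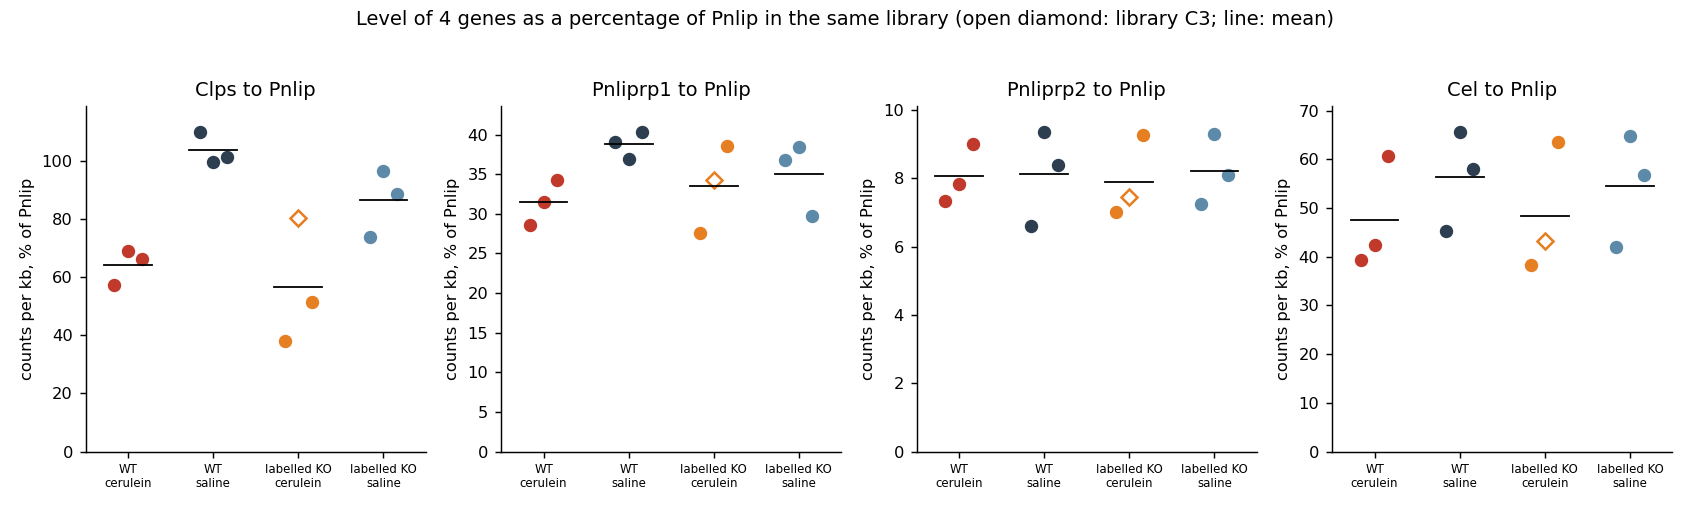
Clps, Pnliprp1, Pnliprp2 and Cel as a percentage of Pnlip in the same library (vertical axes, counts per kb of all annotated exons, from 0), by group, with a line for the mean and an open diamond for C3. The Clps panel shows the widest gap, with WT cerulein between 57.3% and 69.2% and WT saline between 99.8% and 110%, while the Pnliprp2 panel has all group means near 8%.

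The amylase counts were divided very unevenly among copies that share their coding sequence. Amy2a3 held between 24.9% and 64.5% of the counts at the 8 amylase loci, and Amy2a2, identical to it in every 50-base word, between 0.405% and 5.22%. Of the reported genes, Amy2a5 held between 3.29% and 16.8%, Amy2b between 7.87% and 18.4% and Amy1 between 0.712% and 5.89%. The sum over the loci does not depend on how the counted reads were divided among them. It would still lack any reads left out for matching several loci, and how such reads were handled is not given. It was 1.94% ± 0.150 of all counts in WT cerulein and 2.73% ± 0.768 in WT saline (SD, n = 3 each), with ranges of 1.85% to 2.11% and 1.94% to 3.48% that overlapped. The labelled KO had 2.04% (C2), 3.16% (C3) and 1.37% (L4) with cerulein, against 2.94% to 3.36% with saline, so that C3 lay in the saline range and the other cerulein libraries below it. With the TMM factors applied to the library totals, the WT sums were 1.67% (O1), 1.82% (O3) and 1.66% (N3) with cerulein, against 4.12% (W1), 2.05% (K5) and 2.83% (R3) with saline. The summed amylase counts thus separated the WT groups on the TMM scale but not unscaled, while those counted at Amy2a5 did so on both. Among the other copies Amy2a4 was called lower in WT, with a log2 fold change of -1.46 ± 0.35 (edgeR, adjusted p = 0.0129), which was 1 of 5 copies, beside 12.8% of all genes called lower. Without C3, the copy called in the labelled KO was Amy2a3, lower at -1.45 ± 0.41 (edgeR, adjusted p = 0.0223), also 1 of 5, beside 10.5% of all genes called lower. With C3 it was at -0.81 ± 0.46 and not called (edgeR, adjusted p = 0.301).

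**Figure D4:**
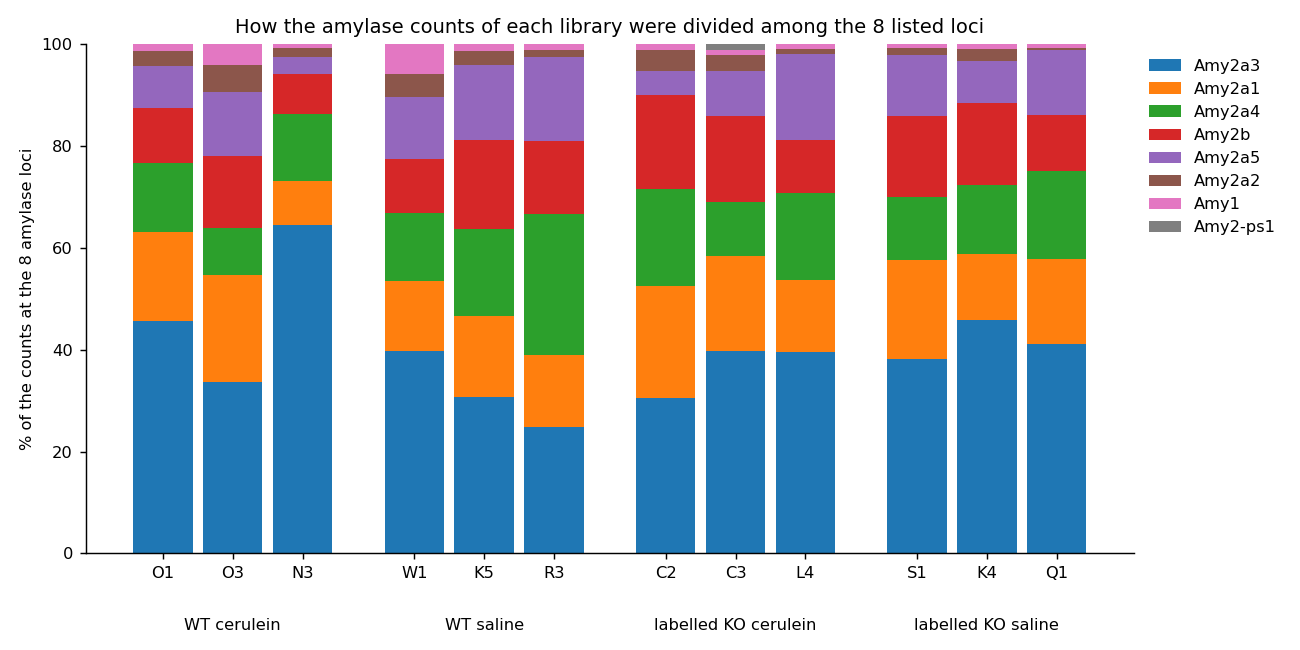
Counts at each of the 8 amylase loci as a percentage of their sum (vertical axis, stacked to 100), in each library, grouped by genotype and treatment. Amy2a3 is the widest band in 11 of 12 libraries and reaches 64.5% in N3, the Amy1 band reaches its highest share in W1, at 5.89%, and Amy2-ps1 is visible in C3, at 1.27%.

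Amy1 varied widely between animals of one group, up to 8.17-fold in WT saline in unscaled CPM. It stood at 214 (O1), 768 (O3) and 147 CPM (N3) in WT cerulein, against 2424 (W1), 264 (K5) and 316 CPM (R3) in WT saline. W1 was the highest saline library and O3 the highest cerulein library, and the 6 labelled KO libraries lay between 118 and 291 CPM. The log2 fold change in WT was -1.41 ± 0.84 (SE, n = 3 per group; edgeR, adjusted p = 0.225), and it was 0.38 without W1 and -2.47 without O3 (adjusted p = 0.701 and 0.0872). Of 6 salivary gland markers 5 were at 0 in W1 and the other summed to 0.164 CPM, and all 6 were at 0 in O3. The 6 liver markers summed to 16.3 CPM in W1 and 23.9 CPM in O3, within the 8.17 to 122 CPM of all libraries. Rnpc3, which overlaps Amy1, was at 5.47 CPM in W1, the lowest value of the 12 libraries.

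Of 24 other zymogens and secretory proteins 23 were tested, of which 7 were called lower and 2 higher in WT cerulein by edgeR, with a median log2 fold change of -0.53. Among all genes tested in WT, 12.8% were called lower and 17.9% higher. Prss1 (4.24 ± 0.57, adjusted p = 0.00918) and Prss3 (2.26 ± 0.54, adjusted p = 0.0133), both listed as trypsinogens, rose, and since trypsinogens form a family of near copies the split of their reads is uncertain. Ctrc, a chymotrypsin that cuts trypsinogens (-1.74 ± 0.48, adjusted p = 0.0213), and the elastase Cela3a (-1.48 ± 0.50, adjusted p = 0.0434) fell. Without C3 the labelled KO gave 6 lower and 2 higher of 23, among them the ribonuclease Rnase1 at -1.59 ± 0.23 (edgeR, adjusted p = 0.000524). Among all genes tested in that fit, 10.5% were called lower and 18.7% higher. By edgeR with all 12 libraries 0 of 23 were called in the labelled KO.

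Of the 12 acinar transcription factors 3 were called lower and 1 higher in WT, where 12.8% of all genes were called lower and 17.9% higher. Bhlha15 (Mist1), which acts on granule formation, was at -1.65 ± 0.41 (edgeR, adjusted p = 0.0147), and Rbpjl, the acinar subunit of PTF1, at -1.59 ± 0.45 (adjusted p = 0.0229). Nr5a2, a nuclear receptor that acts on digestive enzyme genes, was at -1.35 ± 0.44 (adjusted p = 0.0396), and Tcf12, an E protein, rose by 0.43 ± 0.13 (adjusted p = 0.0279). Without C3 the labelled KO gave 4 lower and 2 higher, beside 10.5% lower and 18.7% higher among all genes, led by Rbpjl at -1.69 ± 0.27 (edgeR, adjusted p = 0.000931). With C3 0 of 12 were called, and Rbpjl was at -0.84 ± 0.44 (edgeR, adjusted p = 0.266). Ptf1a itself was at -0.84 ± 0.37 in WT and was not called (adjusted p = 0.107).

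Of 18 lipases of other tissues and their partners 14 were tested. In WT 1 was called, lower, beside 12.8% of all genes (Dagla, a diacylglycerol lipase, at -0.85 ± 0.26, edgeR, adjusted p = 0.0295). In the labelled KO without C3 1 was called, lower, beside 10.5% of all genes (Pnpla2, the adipose triglyceride lipase, at -1.86 ± 0.55, edgeR, adjusted p = 0.0294). K4, a saline library of that comparison, was 1 of the 2 libraries highest in fat-cell markers, and their part in the Pnpla2 value was not tested. Of 12 other secreted phospholipases and their receptor 5 were tested, with 0 called in WT. In the labelled KO without C3, where 18.7% of all genes were called higher, 2 were called higher. These were Pla2g2f (3.25 ± 0.89; edgeR, adjusted p = 0.0208), at a mean of 3.93 CPM in cerulein and 0.322 CPM in saline, and Pla2g12a (0.81 ± 0.23; adjusted p = 0.0245). With C3 the labelled KO had 0 genes called in either list, with Pnpla2 at -1.07 ± 0.57, Pla2g2f at 2.75 ± 1.01 and Pla2g12a at 0.57 ± 0.28 (edgeR, adjusted p = 0.273, 0.147 and 0.245). Of the 2 colipase-like genes Clpsl2 did not pass the filter and Clpsl1 was not matched. For labelled KO against WT and for the difference of the responses, 0 genes of these lists were called by edgeR.

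Over the 12 libraries, the genes whose mean-centred log2 CPM lay nearest to each of the 9 were found among 5540 genes of mean CPM at least 10, by the root-mean-square difference. Among the nearest to Pnlip were Vdac2 (0.0873) and Atp5g2 (0.0956), and nearest to Pnliprp2 were Mef2d (0.0841), Avl9 (0.0980) and Idh2 (0.0988). Clps was nearest to Rnase1 (0.131), and Cel to Egf (0.0849). The nearest genes to Amy2a5 (Derl3, 0.436) and Amy1 (Shank1, 0.793) were much farther away, but both amylases also varied more themselves. Their log2 CPM had an SD of 1.02 and 1.14 over the libraries, against 0.306 for Pnlip and 0.275 for Pnliprp2. Distances of this kind grow with the spread of a gene, so they do not rank the likeness between genes of unlike spread. All libraries enter both patterns, so shared depth and scaling enter the likeness too.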

How the data were processed

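The authors deposited read counts per Ensembl gene, 1 table of whole numbers per library, with no normalization. Per the labels' protocols the RNA was total RNA from whole pancreas, prepared with an Illumina TruSeq Stranded Total RNA kit. HTSeq, DESeq2 and the mm10 build are named, without roles, in the submitters' processing notes. Not given in the sources used here are the aligner, the annotation release, the strand setting and how reads that match several genes were handled. Replicates are separate animals, as the series' design states.

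Of 49585 identifiers 49326 were matched to GENCODE M21. Genes were kept by filterByExpr, scaled by TMM and tested with edgeR 4.0.16 in R 4.3.3 (robust quasi-likelihood F test, 1 coefficient per group, all 12 libraries together), then refitted without C3. Each of 5 two-sided comparisons was adjusted by Benjamini and Hochberg's method over every gene tested, at 0.05. SE was taken as the absolute log2 fold change over the root of the F statistic. CPM is counts per 1e6 of the library total, TMM-scaled where stated, and per-kb values divide unscaled CPM by the union of annotated exons. The fit was tested on simulated data. Alternatives used DESeq2 1.42.0 and limma 3.58.1. Shared words and alignments used Biopython 1.88, and tables and figures Python 3.11.15, pandas 2.3.3, NumPy 2.4.6 and matplotlib 3.10.9. RefSeq gave the start regions.

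The members and lists were chosen with earlier results of these data known. Besides the 9 genes and Atf3, the text names from each list up to 4 called genes, by size of change, or its most abundant genes if none was called, and up to 3 genes nearest in pattern. Ptf1a and the genes overlapping a member were named after their values were seen. 1 of the genes nearest in pattern is not reported here.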

Additional observations from a re-analysis of the deposited data

Results flagged for a closer look

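Amy2-ps1, an amylase pseudogene on chromosome 3 that is none of the 9 genes and enters only the list of other copies and the sum over 8 loci, was counted far higher in 1 library than in the rest. It had 402.66 CPM (9460 counts) in C3 of labelled KO cerulein, and 0.466 to 4.32 CPM in the other 11 libraries, so that C3 stood 93.2-fold above the next library, W1. Its transcript shares 1.78% of its 50-base words with other genes. The cause was not tested.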

How the results depend on the processing

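No paired analysis was run, since the labels give no pairing or litter and the 12 replicate codes all differ. For cerulein against saline in WT, 4399 genes were called, and between 1841 (without O3) and 5583 (without C3) when 1 library was left out. Of the 9 genes 3 were called, where 12.8% of all genes were called lower. The count was 1 with DESeq2's size factors (12.2% of all genes lower), 0 without the filter on low counts (4.13% lower) and 6 with the stricter filter (24.0% lower). It was 5 with only the groups of the comparison (17.4% lower) and 0 without N3 and K4 together (8.24% lower). With 1 library left out it lay between 0 (as without W1, 6.45% lower) and 5 (without C3, 16.6% lower). In the labelled KO 0 genes were called with 12 libraries, 1359 by DESeq2, between 0 and 4306 with 1 library left out, 4319 without C3, N3 and K4 and 4128 without C3 and W1. Of the 9 genes, 0 to 2 were called with 1 library left out, 2 of them without C3 (10.5% of all genes lower). Without C3, N3 and K4 6 were called (12.7% lower), and without C3 and W1 2 were called (9.83% lower). In the fit without C3, 4306 genes were called, and between 2818 and 4682 with 1 more library left out. Of the 9 genes 2 were called there, where 10.5% of all genes were called lower. The count was 4 when scaled without the 50 most abundant genes (13.9% of all genes lower), 1 with library totals (4.50% lower) and 1 without the filter (4.80% lower). It was 8 with the stricter filter (22.0% lower), 6 by DESeq2 (12.6% lower) and 1 with only the groups of the comparison (6.69% lower). With 1 more library left out it lay between 1 (as without O1, 9.31% lower) and 5 (without K4, 10.2% lower). Labelled KO against WT in cerulein gave 0 genes by edgeR and 11 by DESeq2 (14 without C3), and the difference of the responses 0 and 1.

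The cause of these shifts was not tested, beyond the number of genes or samples that a setting leaves. With library totals the calls of the labelled KO without C3 were 3920 higher and 663 lower, against 2756 and 1550 with TMM, and the median over all genes was 0.30. Scaled without the 50 most abundant genes they were 2331 higher and 2048 lower, with a median of -0.12. In WT the estimates were below 0 in 23 of 23 alternatives for 8 of the 9 genes and in 21 for Amy1. The alternatives that leave out several libraries together were chosen after seeing the data. Using only the groups of a comparison does not apply to the difference of the responses. Where C3 and another labelled KO cerulein library were left out, the lone library left is assumed to vary like the other groups.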
